A study of Mus musculus with 7 samples.

Results

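Accessible chromatin was examined at 9 genes that act in natural killer (NK) cells and innate lymphoid cells: Eomes, Tbx21, Nfil3, Zbtb16, Tox, Il2rb, Ncr1, Prf1 and Rora. The members were every ATAC-seq peak of the 7 deposited peak lists that overlapped the body of one of these genes or the 20 kb on either side of it (GENCODE M21, mm10). There were 463 such peaks of 647973 in the series. Overlapping peaks of different libraries were merged into regions, which gave 117 regions at the 9 genes of 145247 in the genome. The number of regions ranged from 4 at Ncr1 to 30 at Rora. By the position of the highest summit, 64 regions were intronic, 12 exonic, 17 lay upstream and 24 lay downstream of the gene. A promoter of a member (1000 bp on either side of an annotated start) was touched by 10 regions.

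The libraries came from bone marrow B-cell progenitors of mice, sorted as pre-proB, proB or preB cells. WT cells carried floxed Erg alleles (Ergfl/fl) without Cre, and were sampled at all 3 stages. Erg KO pre-proB cells were Rag1CreT/+;Ergdelta/delta, so that Cre, expressed in lymphoid cells from the common lymphoid progenitor onwards, had removed Erg, an ETS family transcription factor. Rescue cells were Rag1CreT/+;Ergdelta/delta;IgHVH10tar, with the same deletion and a heavy chain allele that was already rearranged (IgHVH10tar/+, a heterozygous allele, in the study's text), at the 3 stages. The controls lacked Cre, so the transgene and the deletion cannot be told apart in any comparison with WT. A single age range and both sexes are given for the mice as a whole. For each library, neither the age nor any pooling of animals is given in the sources used here. Sorting, as the study describes it, selected B220+ cells without surface IgM or IgD and removed NK1.1+ and CD11c+ cells, so mature NK cells that carry NK1.1 were gated out.

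Each group was 1 library. No difference below has a replicate check, no test was run, and each comparison is one library set against another. The lists held 76465 to 105649 peaks, and the genome-wide background pileup recovered from the fold values was 3.49 to 4.60 fragments. The fold given for each region and library is the deposited value at that library's highest summit in the region. It is the pileup plus 1 over that background plus 1. Within a merged region, the summits of different libraries can lie at different places. The lowest fold in each list was 2.32 to 2.63, and "no peak" means that a region did not reach the calling threshold of that library. Bounds in brackets are exact 95% Poisson intervals of the summit pileup, which cover counting error only. The titles of the 3 Rescue libraries gave another stage than their source names (the title pre-proB stood with the source proB, proB with preB and preB with pre-proB). The titles were used. The Erg deletion itself was not checked, since a peak list does not show which exon was lost. Lists of 10 lineage marker promoters were checked against the labels. B-lineage markers had a promoter peak at 9, 10 and 10 genes in WT pre-proB, proB and preB cells, at 6 in Erg KO pre-proB cells, and at 7, 10 and 10 in Rescue pre-proB, proB and preB cells. In the same order, NK-cell markers gave 6, 6, 4, 6, 7, 7 and 3 of 10, and T-cell markers gave 4, 5, 3, 7, 7, 5 and 3 of 10. Plasmacytoid dendritic cell markers gave 9 or 10 of 10 in every library, and myeloid markers gave 4 to 6 of 10. The NK list holds 5 of the 9 genes described here, and its members Ncr1 and Gzmb had no promoter peak in any library.

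NK cells and other innate lymphoid cells arise from the same lymphoid progenitors as B cells. Their development is set by a few transcription factors and, in NK cells, by signals through the interleukin-15 receptor. Nfil3 and Tox act early in this pathway, Zbtb16 (PLZF) marks the innate lymphoid precursor, Rora is needed for group 2 innate lymphoid cells, and the T-box factors Eomes and Tbx21 (T-bet) set the mature NK program. Il2rb is the receptor chain shared by interleukin-2 and interleukin-15, Ncr1 encodes the activating receptor NKp46, and Prf1 encodes perforin, the pore-forming protein of cytotoxic granules.

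Sequences at the summits of some of the regions that differ between stages are shown here, since the contrast described next rests on regions of this kind. Each is the 201 bases centred on the summit, plus strand, mm10 (GRCm38.p6), read from RefSeq's genome file. Capitals mark matches, on either strand, to 1 of 13 motif strings of transcription factors, listed further on. Regions with peaks in pre-proB and no peak in WT proB or WT preB come first, then 2 regions with the opposite pattern.
Rora intronic region, chr9:69336200-69336400: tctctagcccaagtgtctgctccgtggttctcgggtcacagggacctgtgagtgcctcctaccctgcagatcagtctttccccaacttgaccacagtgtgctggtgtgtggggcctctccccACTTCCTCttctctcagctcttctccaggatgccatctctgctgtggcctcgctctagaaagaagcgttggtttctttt
Nfil3 downstream region, chr13:52962499-52962699: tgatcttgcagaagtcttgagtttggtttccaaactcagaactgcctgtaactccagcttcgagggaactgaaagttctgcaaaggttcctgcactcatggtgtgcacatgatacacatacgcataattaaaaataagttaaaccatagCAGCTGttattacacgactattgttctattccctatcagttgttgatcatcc
Nfil3 intronic region, chr13:52970938-52971138: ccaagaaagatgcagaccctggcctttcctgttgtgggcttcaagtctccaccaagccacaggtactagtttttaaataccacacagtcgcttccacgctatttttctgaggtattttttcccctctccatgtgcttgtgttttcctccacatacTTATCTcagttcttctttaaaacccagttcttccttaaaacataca
Ncr1 upstream region, chr7:4323397-4323597: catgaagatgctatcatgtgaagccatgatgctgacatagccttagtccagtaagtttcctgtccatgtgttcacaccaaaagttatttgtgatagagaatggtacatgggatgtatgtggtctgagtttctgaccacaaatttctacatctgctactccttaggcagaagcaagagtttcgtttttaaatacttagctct
Zbtb16 intronic region, chr9:48661356-48661556: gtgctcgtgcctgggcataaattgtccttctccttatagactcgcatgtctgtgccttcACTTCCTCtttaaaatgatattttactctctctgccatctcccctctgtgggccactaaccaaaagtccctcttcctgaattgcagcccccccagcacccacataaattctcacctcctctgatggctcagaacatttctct
Rora later intronic region, chr9:69367249-69367449: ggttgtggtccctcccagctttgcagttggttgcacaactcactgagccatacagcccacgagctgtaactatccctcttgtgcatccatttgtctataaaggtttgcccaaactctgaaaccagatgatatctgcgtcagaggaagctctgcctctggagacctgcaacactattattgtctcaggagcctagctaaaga
Tox later intronic region, chr4:6817340-6817540: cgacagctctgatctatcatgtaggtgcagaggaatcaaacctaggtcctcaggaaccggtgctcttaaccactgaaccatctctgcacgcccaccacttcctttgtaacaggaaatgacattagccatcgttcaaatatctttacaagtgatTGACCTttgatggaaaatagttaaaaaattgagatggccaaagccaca

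In the full lists, with Rescue stages read by title, the number of open regions at the 9 genes was lower at each later stage in WT and in Rescue cells. WT pre-proB cells had 71 of the 117 regions (60.7%), WT proB cells 51 (43.6%) and WT preB cells 40 (34.2%), and Rescue cells had 83, 66 and 50 through the same stages (70.9%, 56.4% and 42.7%). Erg KO pre-proB cells had 89 (76.1%). Over all 145247 regions the shares were 62.4%, 60.2% and 49.5% in WT, 67.4% in the Erg KO library, and 69.8%, 59.1% and 55.1% in Rescue. At the pre-proB stage the 9 genes stood near the genome-wide share in WT and Rescue and above it in Erg KO, and in WT proB, WT preB and Rescue preB they stood below it. With lists of equal length (the 76465 strongest peaks of each) the pre-proB libraries had 48 regions in WT, 50 in Erg KO and 56 in Rescue. The proB and preB libraries then had 43 and 40 in WT and 54 and 40 in Rescue, so the falls from pre-proB to proB were smaller. With lists of 38232 peaks the WT stages gave 24, 19 and 21 and the Rescue stages 26, 20 and 21, so the fall from proB to preB was not seen there. Read by source name, the Rescue stages had 50, 83 and 66 regions, which is not a steady fall. Of the 117 regions, 23 had a peak in all 7 libraries (19.7%), against 32% of all regions, and 17 had a peak in 1 library (14.5%, against 17.8%).

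**Figure D1:**
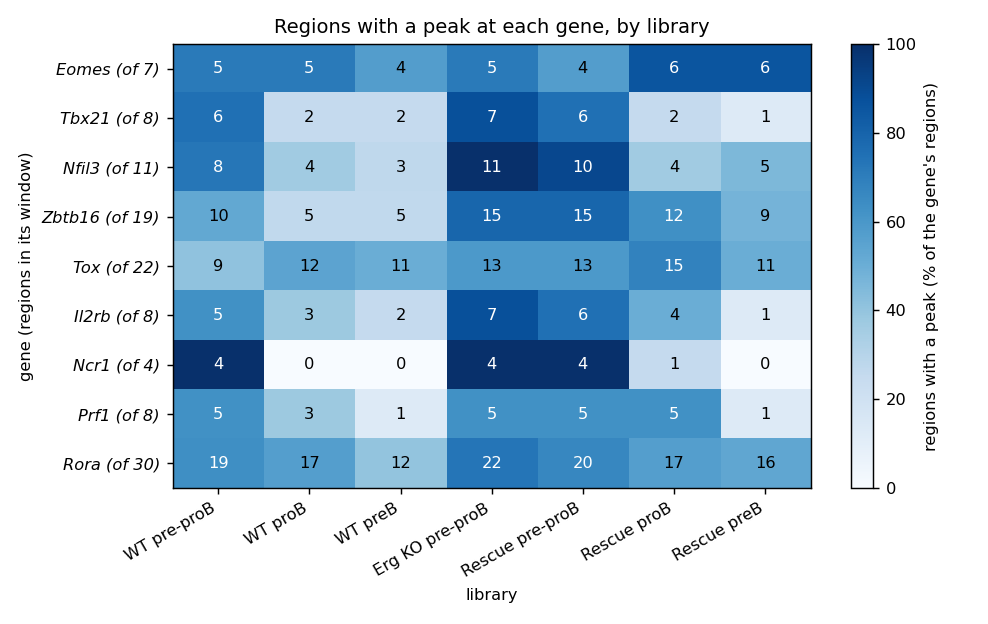
Number of regions with a peak at each of the 9 genes (rows; the regions in the gene's window are given after its name) in each of the 7 libraries (columns, 1 library each), with shading for the percent of the gene's regions. Ncr1 had 4 of 4 regions in each pre-proB library and 0 in WT proB and WT preB, while Eomes had 4 to 6 of 7 in every library.

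The genes differed in how their regions were spread over the stages. Ncr1 had 4 regions in each of the 3 pre-proB libraries, 1 in Rescue proB and 0 in WT proB, WT preB and Rescue preB. Tbx21 had 6, 2 and 2 regions in the successive WT stages, 7 in the Erg KO library, and 6, 2 and 1 in the Rescue stages. Il2rb had 5, 3 and 2 in WT, 7 in Erg KO, and 6, 4 and 1 in Rescue. Nfil3 had 8, 4 and 3 in WT, 11 in Erg KO, and 10, 4 and 5 in Rescue. These 4 genes had their fewest regions in cells past the pre-proB stage, as did Prf1, Zbtb16 and Rora, given below. Eomes had 5, 5 and 4 in WT, 5 in Erg KO and 4, 6 and 6 in Rescue. Tox had 9, 12 and 11 in WT, 13 in Erg KO and 13, 15 and 11 in Rescue. Neither Eomes nor Tox had fewer regions in WT proB than in WT pre-proB. Prf1 had 5, 3 and 1 in WT, 5 in Erg KO and 5, 5 and 1 in Rescue, Zbtb16 had 10, 5 and 5, then 15, then 15, 12 and 9, and Rora had 19, 17 and 12, then 22, then 20, 17 and 16.

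**Figure D2:**
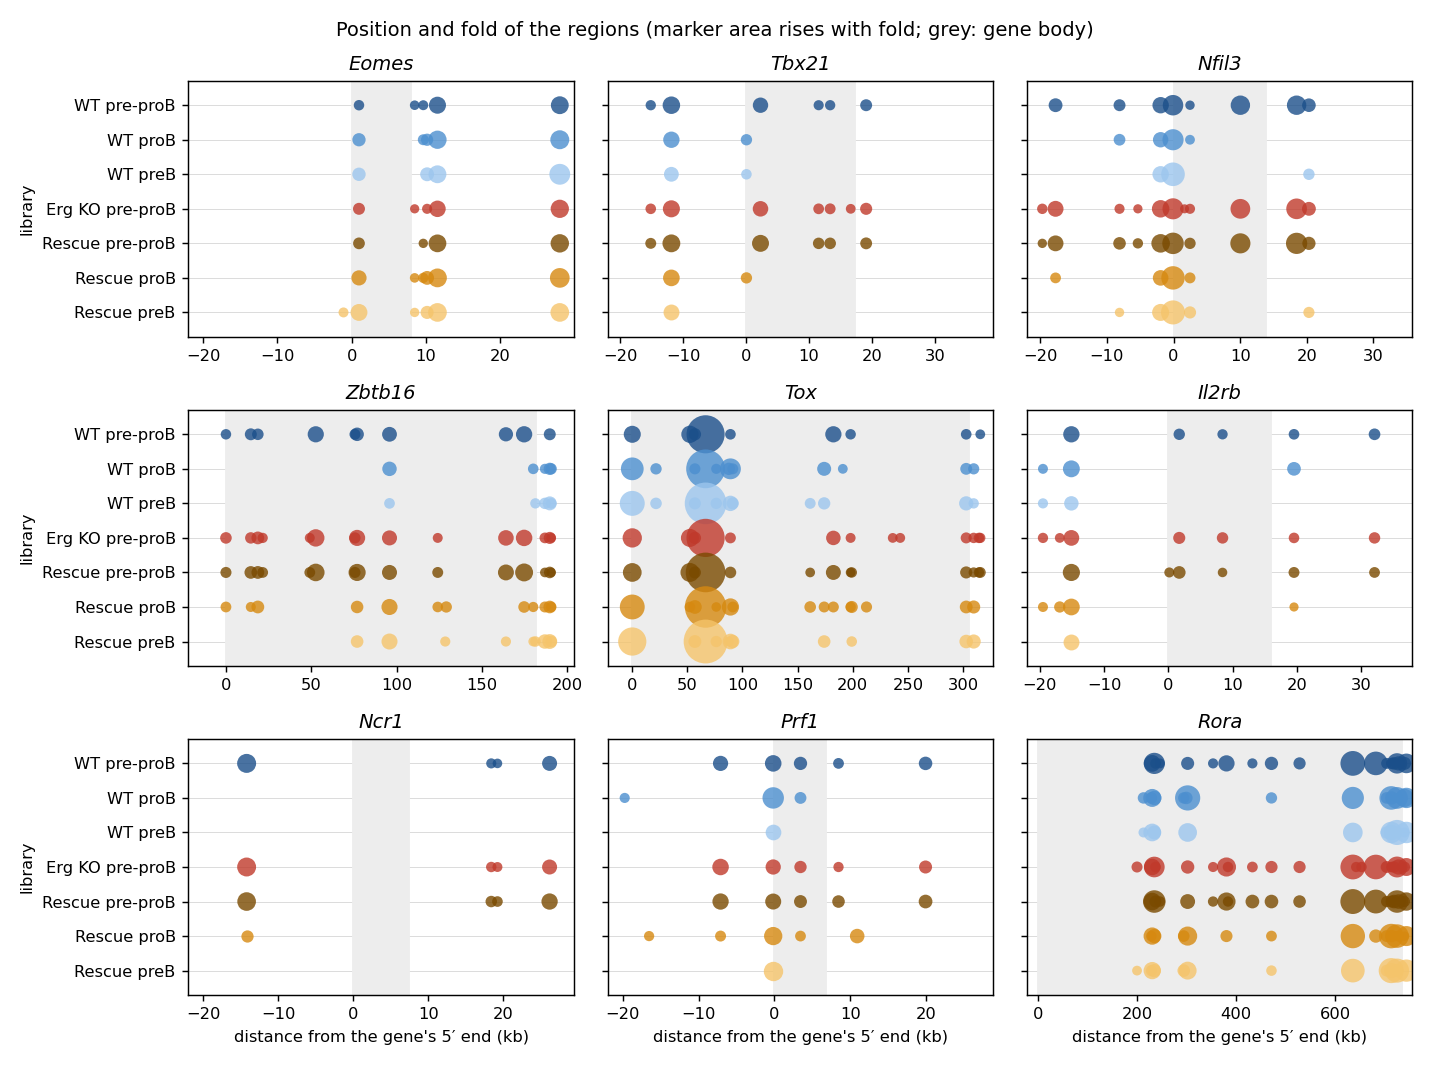
Regions at each gene by the distance of their summit from the gene's 5' end (x axis, kb, the gene body shaded grey) and library (rows), with a marker area that rises with the fold over background. In Ncr1, Tbx21 and Nfil3 the regions away from the promoter are seen mainly in the pre-proB rows.

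Among the regulators, Nfil3 had the tallest pair of regions that were present in pre-proB cells alone. The region chr13:52962113-52962882, 18.5 kb from the start and downstream of the gene, had a fold of 22.7 (18.8 to 27.2) in WT pre-proB cells, 26.8 (22.6 to 31.4) in the Erg KO library and 28.8 (24.5 to 33.6) in Rescue pre-proB cells. It had no peak in any of the 4 proB and preB libraries. The intronic region chr13:52970728-52971356 had folds of 22.7, 23.8 and 25 in the same 3 libraries and no peak in the others. The Nfil3 promoter was open throughout, with folds of 26.2, 28.4 and 37.9 through the WT stages, 28.2 in the Erg KO library and 29.7, 37.2 and 39.8 in Rescue. So its stage difference lay in distal regions and not in the presence of a promoter peak.

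Zbtb16 had 8 regions that were present in all 3 pre-proB libraries and in neither WT proB nor WT preB, the most of any of the 9 genes. The tallest, in an intron at chr9:48661210-48661769, had folds of 14.3, 14.7 and 18.4 in WT, Erg KO and Rescue pre-proB, no peak in WT proB, WT preB or Rescue preB, and 5.57 (3.65 to 8.18) in Rescue proB. The Zbtb16 promoter had a low peak, with folds of 4.07, 5.5 and 4.83 in the WT, Erg KO and Rescue pre-proB libraries and 4.45 in Rescue proB, and no peak in the other 3 libraries. Zbtb16 also had the most regions with a peak in Rescue proB and none in WT proB, with 7.

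Among the regions with no peak in WT proB or WT preB, Rora had the tallest. The intronic region chr9:69335907-69336611, 46.6 kb from the inner Rora start, had folds of 38 (32.9 to 43.7) in WT pre-proB cells, 42.3 (37.1 to 48.1) in the Erg KO library and 39 (34 to 44.5) in Rescue pre-proB cells. Rescue proB had a lower fold, 8.24 (5.84 to 11.3), and the other 3 libraries had no peak. A region in the same gene had the opposite pattern: chr9:69366900-69367820 had 37.8 (32.9 to 43.4) in WT proB and 29.4 in WT preB cells, 41.9 and 44.2 in the Rescue libraries of those stages, and no peak in any pre-proB library. Another intronic region, chr9:68955948-68957346, was open in all 7 libraries with folds of 7.75, 44.9 and 20.6 through the WT stages, 8.25 in the Erg KO library and 11.1, 21.8 and 18.4 in Rescue. The intronic region chr9:68953260-68953827 had a peak in WT proB alone (6.83). So Rora held intronic regions of both patterns, as did Tox. The inner promoter of Rora had folds of 43, 32.1 and 23.5 in WT, 43.2 in Erg KO and 43.6, 41.2 and 38.2 in Rescue, and the outer start had no peak in any library. The 30 regions counted at Rora include a downstream one, open in all 7 libraries, at the promoter of its neighbour Ice2.

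Tox is an HMG-box factor of T and NK cell development. Its promoter had folds of 16.1, 34.5 and 43.8 in WT, 22.4 in Erg KO and 20.7, 43.4 and 60 in Rescue, higher at the later stages in both. The intronic region at chr4:6817144-6817727 had folds of 9.42 in WT proB and 6.58 in WT preB cells, 4.68 and 7.01 in the Rescue libraries of those stages, and none in a pre-proB library. Tox had regions of the other pattern as well, with 4 present in all 3 pre-proB libraries and in neither WT proB nor WT preB.

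The T-box genes were unlike each other. At Tbx21, the intronic region chr11:97112576-97113244, 2.29 kb from the start, had folds of 12.2 in WT, 12.5 in Erg KO and 15.9 in Rescue pre-proB cells, and no peak in any other library. The Tbx21 promoter showed the reverse, with no peak in the 3 pre-proB libraries or in Rescue preB and low peaks in WT proB (5.17, 3.47 to 7.44), WT preB (4.16) and Rescue proB (5.12). A region 11.9 kb upstream had a peak in every library, with folds of 11 to 18.2. Eomes had no region of the kind limited to pre-proB. Its promoter was open in every library, with folds of 4.07, 8.12 and 8.33 in WT, 6.05 in Erg KO and 5.72, 11.8 and 15.7 in Rescue. A second region at the Eomes promoter, chr9:118476958-118477267, had a peak in Rescue preB alone (3.51). The tallest region in the Eomes window was the promoter of its neighbour Golga4, so it is not an element assigned to Eomes.

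The promoters of the receptor and effector genes differed from each other. At Ncr1, chr7:4323221-4323871, 14.2 kb upstream of the start, had folds of 21.5 (17.7 to 25.9) in WT pre-proB, 21.3 (17.6 to 25.5) in Erg KO pre-proB, 20.4 (16.8 to 24.5) in Rescue pre-proB and 6.46 (4.37 to 9.24) in Rescue proB, and no peak in WT proB, WT preB or Rescue preB. No library had a peak at the Ncr1 promoter. The Il2rb promoter had folds of 5.23, 6.23 and 7.15 in WT, Erg KO and Rescue pre-proB and no peak at a later stage, and its other start had a peak in Rescue pre-proB alone (3.57), while a region 15.1 kb upstream had folds of 10.3 to 16.4 in all 7 libraries. The Prf1 promoter was open throughout, with folds of 14.9, 29.5 and 12.9 in WT, 11.9 in Erg KO and 13.6, 19.4 and 22.7 in Rescue. A promoter peak was present at 7, 6 and 6 of the 9 genes in WT, 7 in Erg KO and 7, 7 and 5 in Rescue, against 63.3%, 65.5%, 61.4%, 64.2%, 64.5%, 64.8% and 63.1% of 21938 coding genes in the same order.

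**Figure D3:**
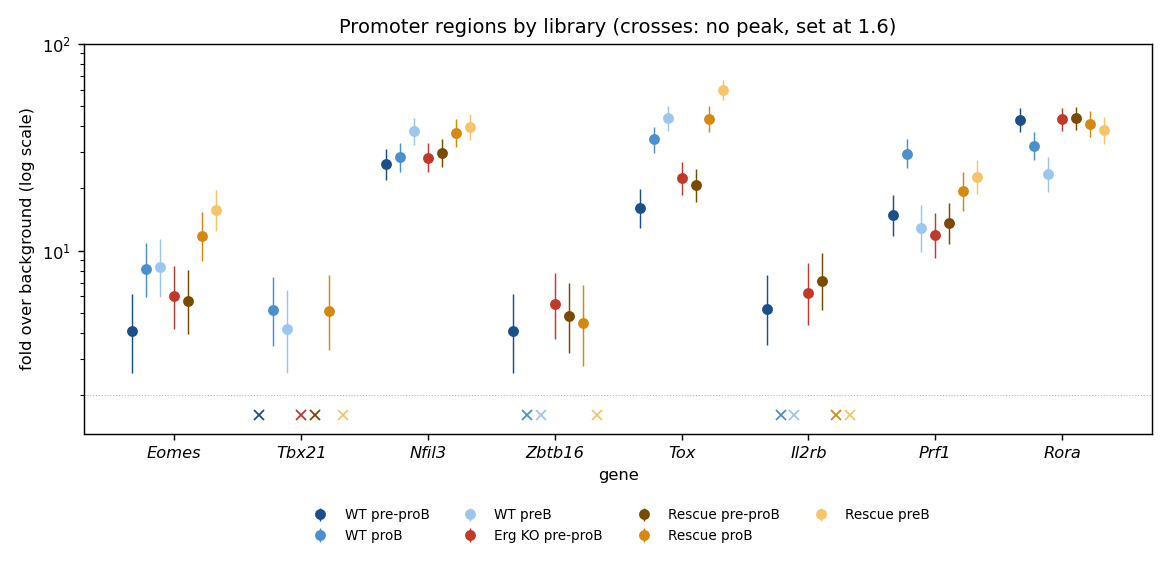
Fold over background at the promoter regions of the 8 genes that had one (y axis, log scale) in each library, with bars for the 95% Poisson interval of the pileup and crosses, drawn at 1.6, for no peak. Nfil3, Tox, Prf1 and Rora had a promoter peak of 11.9 or more in every library, the Il2rb promoter only in the 3 pre-proB libraries, and the Tbx21 promoter in WT proB, WT preB and Rescue proB.

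The WT libraries were compared between successive stages. From pre-proB to proB, 40 regions (44%) had a peak in pre-proB and none in proB, against 26.3% of all regions with a peak in either library, and 20 (22%) had one in proB only, against 23.5%. Of the 31 regions shared, 5 were at least 2 times higher in proB and 2 at least 2 times higher in pre-proB (13.8% and 16% of all shared regions). From WT proB to WT preB, 14 regions (25.9%) had a peak in proB only and 3 (5.56%) in preB only, against 24.4% and 8.01% of all regions. Of the 37 shared, 5 (13.5%) were at least 2 times higher in proB and 1 (2.7%) in preB, against 8.53% and 5.18% of all shared regions. With every list cut to the 76465 strongest peaks, 25 regions were in WT pre-proB only and 20 in WT proB only. In the full lists, the members' share of regions gained or lost between proB and preB was close to that of all regions. The loss between pre-proB and proB was above it. The shares of all regions in the cut lists are not given here, so whether that excess remains there was not tested.

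A single class held much of this. Regions with a peak in all 3 pre-proB libraries and in neither WT proB nor WT preB numbered 37 of 117 (31.6%), against 17.7% of all regions, and 8 of the 9 genes had at least 3. The opposite class, with a peak in WT proB and WT preB and in no pre-proB library, held 8 (6.84% against 7.43%), of which 4 were at Tox, 3 at Rora and 1 was the Tbx21 promoter. These classes were chosen after the values were seen, and with lists of equal length they held 23 and 9 regions. The shares of all regions in these classes at that length are not given here. Of the 37, 2 were promoters (Zbtb16 and Il2rb). Rescue proB had a peak at 13 of the 37 (35.1%, against 33.1% of all such regions) and Rescue preB at 2 (5.41%, against 10.4%). At 11 of those 13 the fold was lower in Rescue proB than in Rescue pre-proB, with a ratio of 0.199 to 1.25 and a median of 0.337, beside a median of 0.285 over all 8532 such regions, of which 95.7% were lower.

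**Figure D4:**
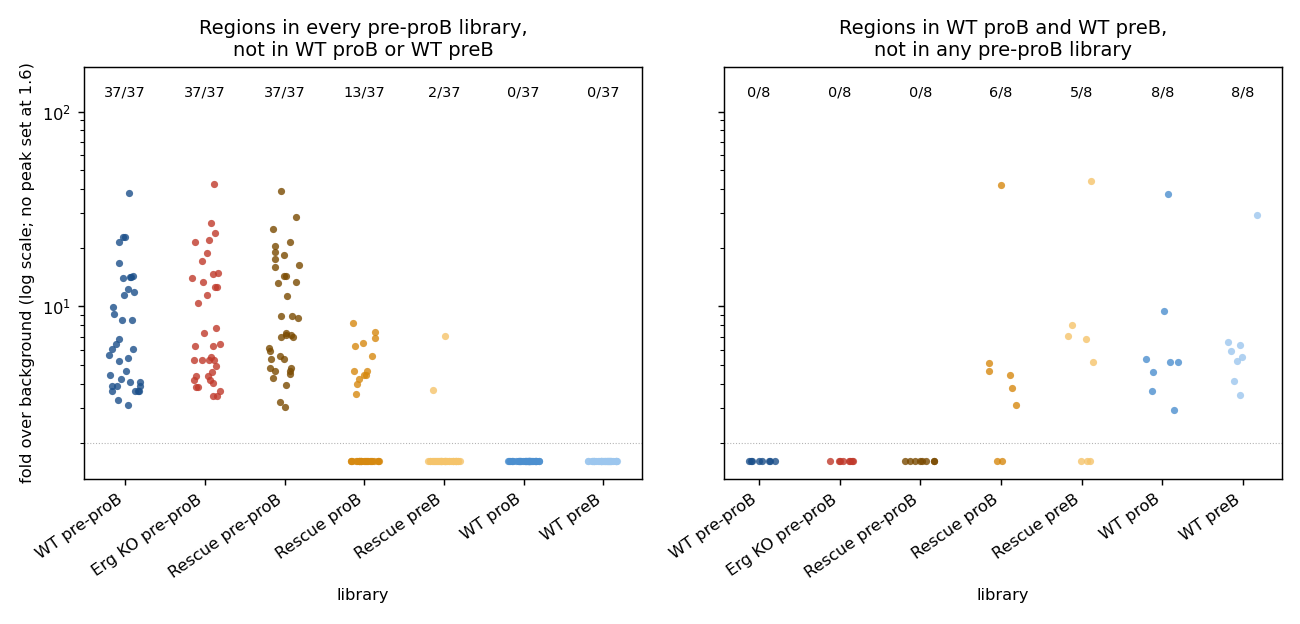
Fold over background (y axis, log scale, no peak drawn at 1.6) in each library for the 37 regions present in all 3 pre-proB libraries and in neither WT proB nor WT preB (left) and the 8 of the opposite class (right), 1 point a region, with the count of regions that had a peak above each column. Rescue proB had 13 of the 37 and Rescue preB 2, and the pre-proB columns overlap each other. Which libraries have or lack a peak is fixed by how the classes were made, except in Rescue proB and Rescue preB.

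The loss of Erg was compared with WT at the pre-proB stage. Of 91 regions with a peak in either library, 69 were shared, 20 (22%) had a peak in Erg KO only and 2 (2.2%) in WT only, against 12.5% and 5.58% of all regions. None of the 69 differed by 2 times or more in either direction (0.28% and 0.27% of all shared regions). The ratio of Erg KO to WT over the 69 ran from 0.582 to 1.63 with a median of 1.05, and 44 were higher in Erg KO (63.8%). Over all shared regions the median was 1.04 and 59.8% were higher in Erg KO. The 20 regions seen only in Erg KO were low, with folds of 2.57 to 4.76, beside a median of 7.33 for the shared ones. Their median was 3.76, against 3.66 over all such regions. Of these 20, 10 also had a peak in Rescue pre-proB, 5 in WT proB or WT preB, and 6 in no other library (50%, 25% and 30%, against 63.3%, 28.5% and 24.9% of all regions seen in Erg KO and not in WT pre-proB). The highest was an intronic region of Rora, chr9:68853860-68854239, with 4.76 (3.15 to 6.95) in Erg KO, 3.3 in Rescue preB and no peak elsewhere. Next came a region downstream of Zbtb16, chr9:48649039-48649603, with 4.4 in Erg KO, 3.69 and 5.26 in WT proB and preB, and 3.22, 4.68 and 10.3 through the Rescue stages. The Nfil3 region chr13:53000616-53000956 had 4.03 in Erg KO and 2.86 in Rescue pre-proB, and no peak elsewhere. The 2 regions in WT only were as low: chr9:118487700-118488062, downstream of Eomes, with 3.49 in WT pre-proB, and an intronic Rora region, chr9:68900228-68900500, with 3.3. Both had a peak in Rescue pre-proB (2.86 and 3.93). With lists of equal length (the 76465 strongest peaks of each), 5 regions were in Erg KO only and 3 in WT only, so most of the excess was in peaks outside the strongest 76465. No share of all regions is given here at that length. Fewer B-lineage marker promoters (6 against 9 of 10) and more T-cell ones (7 against 4 of 10) had a peak in Erg KO than in WT pre-proB. Over all coding genes the shares were 64.2% and 63.3%. With a window of 2500 bp the gaps were smaller, with 9 against 10 B-lineage markers and 8 against 6 T-cell markers. The part of these markers in this comparison was not tested.

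**Figure D5:**
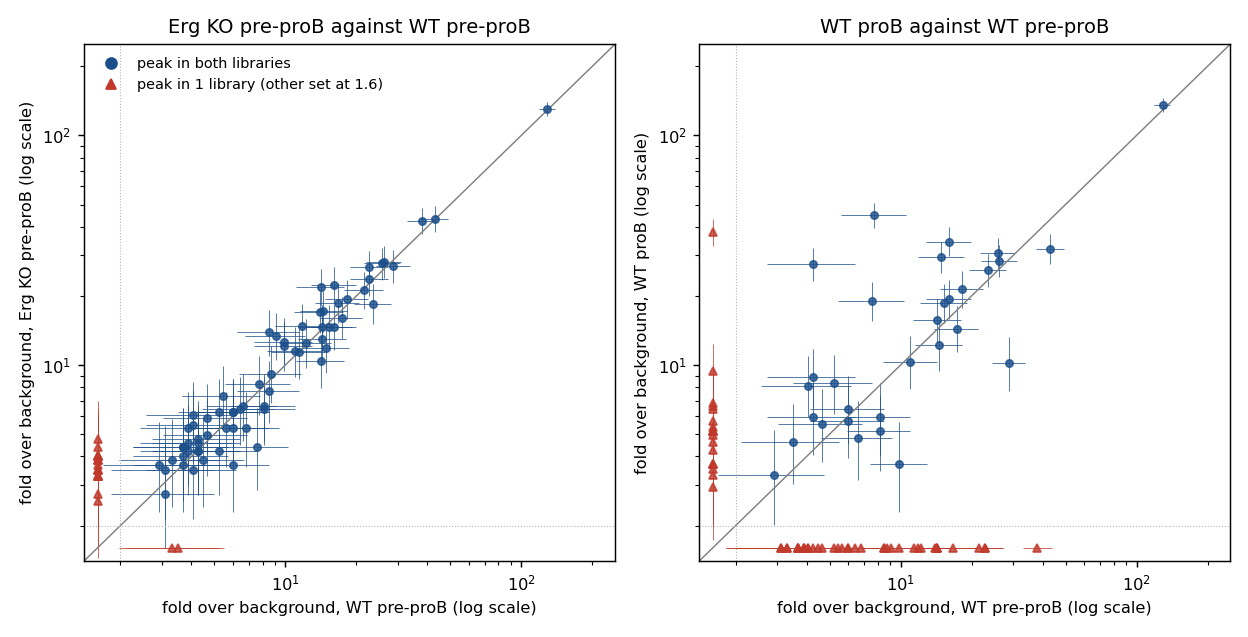
Fold over background of the regions at the 9 genes in WT pre-proB (x axis) against Erg KO pre-proB (left) and WT proB (right), log scales, with 95% Poisson bars and red triangles, drawn at 1.6, for regions with a peak in 1 library. On the left the 69 shared regions lie along the diagonal and the 20 seen only in Erg KO stand at or under 4.76, while on the right 40 regions, up to a fold of 38, have no peak in WT proB.

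The Rescue libraries were compared with WT stage by stage. At the pre-proB stage 13 regions (15.5%) were in Rescue only and 1 (1.19%) in WT only, against 14.7% and 4.6% of all regions. Of 70 shared, 1 (1.43%) was at least 2 times higher in Rescue and 0 in WT, against 0.537% and 0.275% of all shared regions. At proB, 22 (30.1%) were in Rescue only and 7 (9.59%) in WT only, against 16% and 17.5% of all regions. Of 44 shared, 0 were 2 times higher in Rescue and 4 (9.09%) in WT, against 5.32% and 6.52% of all shared regions. At preB, 16 (28.6%) were in Rescue only and 6 (10.7%) in WT only, against 16.2% and 6.6% of all regions. Of 34 shared, 2 (5.88%) were 2 times higher in Rescue and 0 in WT, against 3.05% and 0.885% of all shared regions. The proB stage thus had more regions at these genes in Rescue than in WT, whereas over the genome the 2 directions were near equal. With peaks of −log10 q of at least 10 alone, the order turned, with 10 regions in Rescue proB only and 13 in WT proB only, and at equal list length preB gave 6 in each direction. Read by source name in place of title, the first comparison gave 19 regions in Rescue only and 40 in WT only, the second 49 and 17, and the third 30 and 4. Rescue pre-proB against Erg KO pre-proB gave 5 regions (5.32%) in Rescue only and 11 (11.7%) in Erg KO only, against 9.08% and 5.79% of all regions. Of 78 shared, 1 (1.28%) was 2 times higher in Rescue and 0 in Erg KO, against 0.125% and 0.0306% of all shared regions. At equal list length the numbers were 11 and 5, the opposite order.

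The 3 pre-proB libraries resembled each other at these genes. Of 68 regions present in all 3, the highest fold over the lowest had a median of 1.27 and a maximum of 2.43, and 1 region (1.47%, against 1.18% of all such regions) reached 2. Both Erg-deficient pre-proB libraries shared 10 regions absent from WT pre-proB (8.55%, against 5.65% of all regions), of which 7 had no peak in any WT library (3.92% of all regions). The 10 regions were at Zbtb16 (5), Nfil3 (2), Tox (2) and Rora (1). No region at these genes was in WT pre-proB and in neither Erg-deficient pre-proB library (2.36% of all regions).

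Other NK and innate lymphoid genes were examined at their promoters. Of 35 genes, 28, 28 and 22 had a promoter peak through the WT stages, 30 in the Erg KO library, and 32, 28 and 23 in Rescue. In all 7 libraries 21 genes had one, including Id2, Gata3, Il7r and Runx3, and 2 (Gzmb and Fasl) had none. Klrk1 and Cd226, which encode activating receptors, Xcl1, a chemokine, and Il1rl1, the interleukin-33 receptor, had a peak at the promoter in WT pre-proB cells and none in WT proB cells, and Tcf7, Bcl11b, Gzma and S1pr5 had the opposite. These are 4 genes each way (11.4% of the 35), against 1.82% of coding genes with a promoter peak in WT pre-proB alone of the pair and 4.1% in WT proB alone. The T-lineage factors Tcf7 and Bcl11b had a promoter peak in Erg KO and Rescue pre-proB. Tcf7 also had one at every later stage, and Bcl11b, of the later stages, had one in WT proB only.

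Likeness of the region counts over the 7 libraries was computed for the 4 members with at least 10 regions, over 6369 genes, as Pearson's r. The gene most alike was Tfrc for Nfil3 (r = 0.994), Pip5k1b for Zbtb16 (0.987), Stn1 for Tox (0.985) and Ank2 for Rora (0.996). The 7 points share libraries and depth, and 332 genes passed an r of 0.95 with Nfil3, 54 with Zbtb16, 5 with Tox and 96 with Rora.

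The motif strings were searched on both strands in the 201 bases around each summit. They were CCGGAAGT and ACAGGAAGT for ETS factors, GAGGAAGT for PU.1, TGTGGTT for RUNX factors, AGGTGTGA for T-box factors and TCCCNNGGG for EBF1. The others were the E-box strings CAGCTG, bound by E proteins, and CAGGTG, likewise, then CTTTGAA for TCF1 and LEF1, AGATAA for GATA-family factors, TTATGTAA and TTACGTAA for NFIL3, and AGGTCA for ROR receptors. The second ETS string and the PU.1 string share their last letters, so only 1 of them can match at a site, the first letters of the T-box string can overlap an E-box, and the PU.1 string was added after the windows had been read. RUNX was in 13.7% of the 117 windows, against 10.8% of all windows, and in 21.6% of the 37 pre-proB ones, against 16.2% of all windows in that class. EBF1 was in 3.42% of the 117 (5.88% of all) and in 0 of the 37 (1.36%). PU.1 was in 6.84% of the 117 (7.22%) and 13.5% of the 37 (9%). The E-box CAGCTG was in 17.9% (20.2%) and CAGGTG in 18.8% (20%). For the ETS strings the shares were 0% (0.909% of all windows) and 3.42% (2.4%), for T-box 0.855% (0.949%), for TCF1 and LEF1 2.56% (4.39%), for GATA 9.4% (7.86%), for NFIL3 0.855% (0.688%) and 0% (0.0606%), and for ROR 10.3% (11.2%). In the 37 pre-proB windows, with the share of all windows of that class in brackets, ROR was in 0 (10.6%), CAGCTG in 18.9% (25%), CAGGTG in 16.2% (21.5%) and GATA in 13.5% (8.85%). T-box was in 2.7% (1.16%) and TCF1 and LEF1 in 2.7% (4.15%), and the ETS strings (0.14% and 1.7%) and NFIL3 strings (0.675% and 0.0776%) were in 0 of the 37. A match to these letters is a description of the window, not of a bound factor. PU.1 matches lie in the printed Rora and Zbtb16 pre-proB windows. These windows are among the 37, so the PU.1 share there includes windows read before that string was added.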

How the data were processed

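Accessible chromatin was measured by ATAC-seq in 7 libraries, 1 for each group, and the authors deposited 1 MACS2 peak list per library in narrowPeak format, with no pooling. The authors aligned reads to mm10 with Bowtie2. The submitters' processing notes also name CASAVA 1.8.2 and Picard, with all remaining versions and options not given in the sources used here. For fragmentation, the methods name sonication and the labels name the Tn5 transposase. The deposited columns used hold a fold ratio at the summit, a −log10 p-value and q-value, a score of 10 times the q column, and the summit offset in bp. Depth was known only from the fold steps, which were whole within 0.05 of a fragment for 100% of the peaks checked. The tallest peaks were left out of that check. The recovered background is the depth-scaled background and not the total number of reads.

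Peaks overlapping by at least 1 bp were merged over the genome. A region belonged to a gene if it overlapped the body plus 20 kb. The regions named with coordinates were the tallest of each gene, up to 3 in each direction of the Erg KO and WT proB comparisons with WT pre-proB, and every promoter region; the Tbx21 region 2.29 kb from the start, named for its pattern, was chosen after its values were seen. 1 region that this rule names is not reported here. The members and lists were chosen with earlier results of these data known. The merging and counting code was tested on simulated data. Python 3.11.15, numpy 2.4.6, pandas 2.3.3, scipy 1.17.1 and matplotlib 3.10.9 were used.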

Additional observations from a re-analysis of the deposited data

Results flagged for a closer look

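Stage differences that ran in opposite directions in WT and Rescue were singled out. The region chr15:78475469-78475868, 18.1 kb from the Il2rb start and downstream of the gene, had a proB to pre-proB fold ratio of 2.08 in WT and 0.575 in Rescue. Its folds were 4.65 (3.07 to 6.77) in Rescue pre-proB and 2.67 (1.45 to 4.61) in Rescue proB, with overlapping intervals. The lowest fold in the Rescue proB list was 2.45. A region downstream of Rora, chr9:69394140-69394742, between that gene and the region at the Ice2 promoter, had a ratio of 2.52 in WT and 0.648 in Rescue. Its Rescue folds were also low, 4.47 in pre-proB and 2.9 in proB. The number of Nfil3 regions changed by -1 from proB to preB in WT and by 1 in Rescue. With 1 library per group, the difference between WT and Rescue was not tested for any of these.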

How the results depend on the processing

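No test was run, so values under 8 other settings are set beside those reported. No paired analysis was possible because each group was 1 library and the labels give no replicate numbers. Pairs of counts below are regions in the first named library only, then in the second only, and the cause of each shift was not tested. Lists cut to the 76465 strongest peaks gave 5 (Erg KO only, against WT pre-proB), 25 (WT pre-proB only, against WT proB), 7 (WT preB only, against WT proB), 2 (WT pre-proB only, against Rescue), 6 (Rescue preB only, against WT) and, for Rescue against Erg KO pre-proB, 11 and 5, a difference of 6 that turned the order. Lists of 38232 peaks gave 155 regions summed over the libraries (450 as reported) and 29 promoters (45), 3 in Erg KO only, 5 and 10 for WT proB against pre-proB, and 2 in WT proB only against preB, whose difference of 2 turned the order. The same lists gave 3 in Rescue pre-proB only against WT, 2 and 1 at proB, 3 and 3 at preB, and 3 and 1 for Rescue against Erg KO pre-proB, a difference of 2 that turned the order. A −log10 q of at least 10 gave 298 regions, 5 in Erg KO only, 26 in WT pre-proB only against proB, 6 in WT preB only against proB and 2 in WT pre-proB only against Rescue. It also gave 10 and 13 for Rescue against WT proB (a difference of -3, turned), 6 and 2 for preB, and 11 and 2 for Rescue against Erg KO pre-proB (a difference of 9, turned). Requiring a peak to cover at least 0.5 of the region gave 4 in WT pre-proB only against Erg KO and 11 in WT proB only against Rescue. Gene bodies without flanks gave 291 regions, 11 and 1 for Erg KO against WT pre-proB, 25 in WT pre-proB only against proB, 7 and 0 for Rescue against WT pre-proB, and 7 in Erg KO only against Rescue. Flanks of 50 kb gave 5 in WT pre-proB only against Erg KO, 21 and 2 for Rescue against WT pre-proB, 12 in WT proB only against Rescue, and 11 in Rescue only against Erg KO pre-proB. Rescue stages read by source name gave 40 in WT pre-proB only (a difference of -21, turned), 49 and 17 at proB, 30 in Rescue preB only, and 14 and 53 for Rescue against Erg KO pre-proB. The wider promoter window of 2500 bp gave 48 promoters. The direction of the WT pre-proB to proB contrast was kept in each setting that applies to it, which leaves out the source names and the promoter window. The number of regions in every pre-proB library and in neither WT proB nor WT preB was 8 to 49 over the settings added after the data were seen, with 37 as reported. A region with no peak may still be open below the calling limit.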

Other observations

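At Rora, the region chr9:68888517-68889308 was open in every library but higher at the pre-proB stage. Its folds were 28.7, 10.2 and 9.21 through the WT stages, 26.9 in the Erg KO library, and 33.6, 9.8 and 8.05 in Rescue. The intronic Tox region chr4:6901255-6903041 had the opposite order, with 4.26, 27.5 and 12.3 in WT, 4.58 in Erg KO and 5.54, 16.7 and 12.8 in Rescue. Its tallest summit was at 6902347, in WT proB. The pre-proB peaks lay at 6901815-6902043 in WT, 6901417-6901694 in Erg KO and 6901349-6901954 in Rescue, and did not reach that summit. So the folds of this merged region do not compare heights at a single site. The Prf1 region chr10:61308465-61309114, 8.95 kb from the inner start and downstream of the gene, had a fold of 10.5 in Rescue proB and no peak in any other library. These regions were chosen after their values were seen.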
